A study of Mus musculus with 8 samples.

Results

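Tslp, Areg, Il7, Il15, Csf1, Csf2, Csf3, Pdgfa and Flt1 encode cytokines, growth factors and 1 growth factor receptor that epithelial and stromal cells of barrier tissues are known to produce. They were chosen by name as 9 of the 248 genes of an nCounter Mouse Inflammation panel, and all 9 were found in the table. RNA came from the conjunctiva of female C57BL/6J mice, labelled as 8 weeks old, after 5 days of desiccating stress (DS), which combines dry moving air with scopolamine injections that block tear secretion. During DS the mice were gavaged daily with PBS vehicle (4 mice, numbered 5 to 8) or with tributyrin, a triglyceride that is cleaved to butyrate in the gut (4 mice, numbered 9 to 12). Stress and scopolamine were thus common to both groups. The unstressed group was not analysed here, so the values show these genes within stressed conjunctiva and not how stress itself moved them. The panel held none of the 8 epithelial and goblet cell markers, 4 fibroblast markers and 4 endothelial markers listed for a check of the tissue label, and that check could not be made. The tissue was measured as a whole, so fewer cells of a type and less RNA per cell cannot be told apart.

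The 9 genes act at different points of a barrier's response to injury. TSLP, an epithelial alarmin, prepares dendritic cells to favour type 2 immunity, and amphiregulin, encoded by Areg, binds the epidermal growth factor receptor and supports epithelial repair. IL-7 and IL-15 signal through receptors with the common gamma chain and keep lymphocytes, including those resident in epithelium, alive. Csf1, Csf2 and Csf3 encode M-CSF, GM-CSF and G-CSF, which act mainly on macrophages, on dendritic and granulocyte-lineage cells, and on neutrophils. PDGF-A, encoded by Pdgfa, is a mitogen for fibroblasts, and FLT1 is a receptor for VEGF-A, placental growth factor and VEGF-B that is found on endothelium and on monocytes.

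Sequence just before the start site is shown for Areg and Flt1 because of the members with an entry these alone held a full cAMP response element. RefSeq promoter entries (GRCm38.p6) were matched for 5 of the 9 genes, namely Areg, Csf1, Csf2, Pdgfa and Flt1. Each line below gives the 120 bases up to the start site on the gene's own strand, with the response element TGACGTCA and the TATA box TATAAA in capitals. The Areg window is chr5:91139479-91139598 on the plus strand and the Flt1 window is chr5:147726012-147726131 on the minus strand.
Areg: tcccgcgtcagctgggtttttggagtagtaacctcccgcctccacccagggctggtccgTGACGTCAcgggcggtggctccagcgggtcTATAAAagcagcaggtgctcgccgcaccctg
Flt1: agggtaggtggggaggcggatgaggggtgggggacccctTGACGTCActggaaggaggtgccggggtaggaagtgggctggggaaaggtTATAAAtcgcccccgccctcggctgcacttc
The response element began at -61 in Areg and at -81 in Flt1, and the TATA box at -31 in both. On either strand within 250 bases before the start, 1.55% of 32851 promoter entries held TGACGTCA and 12.4% held TATAAA. The AP-1 motif TGANTCA, held by 6.75% of the entries, was not matched in any of the 5 genes. The NF-kappaB consensus, held by 7.25%, was matched in Csf1, Flt1 and 1 of the 2 Pdgfa entries, without overlapping the response element of Flt1. A match is a description of letters and not evidence of a bound site.

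None of the 9 genes differed between the groups by the test used. Normalized counts, which are probe counts scaled by the authors to reference genes, were compared as deposited log2 values with limma (two-sided), and p-values were adjusted over all 248 genes by the Benjamini-Hochberg method. At an adjusted p of 0.05, 0 of the 9 genes were called, and 0 of the 248 panel genes were called (0.0%). The limma adjusted p of the 9 genes ran from 0.673 to 0.939. At an unadjusted limma p under 0.05, 0 of the 9 genes passed, against 31 of 248 panel genes (12.5%). The values of vehicle and tributyrin mice overlapped for all 9 genes, while 18 panel genes (7.26%) had groups that did not overlap. Of the 9 log2 fold changes (tributyrin over vehicle), 4 were above 0 and 5 below, with a median of -0.02, beside a median of 0.055 over the panel, where 177 genes were above 0 and 71 below. A p-value over the threshold does not show equal levels, and the 95% interval of each difference is therefore given with each gene. The sources used here do not say how the mice were caged, and the p-values measure the spread between these 8 mice. By the exact Mann-Whitney test (two-sided), the p of the 9 genes ran from 0.20 to 1.0 before adjustment, and 0 were called.

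**Figure D1:**
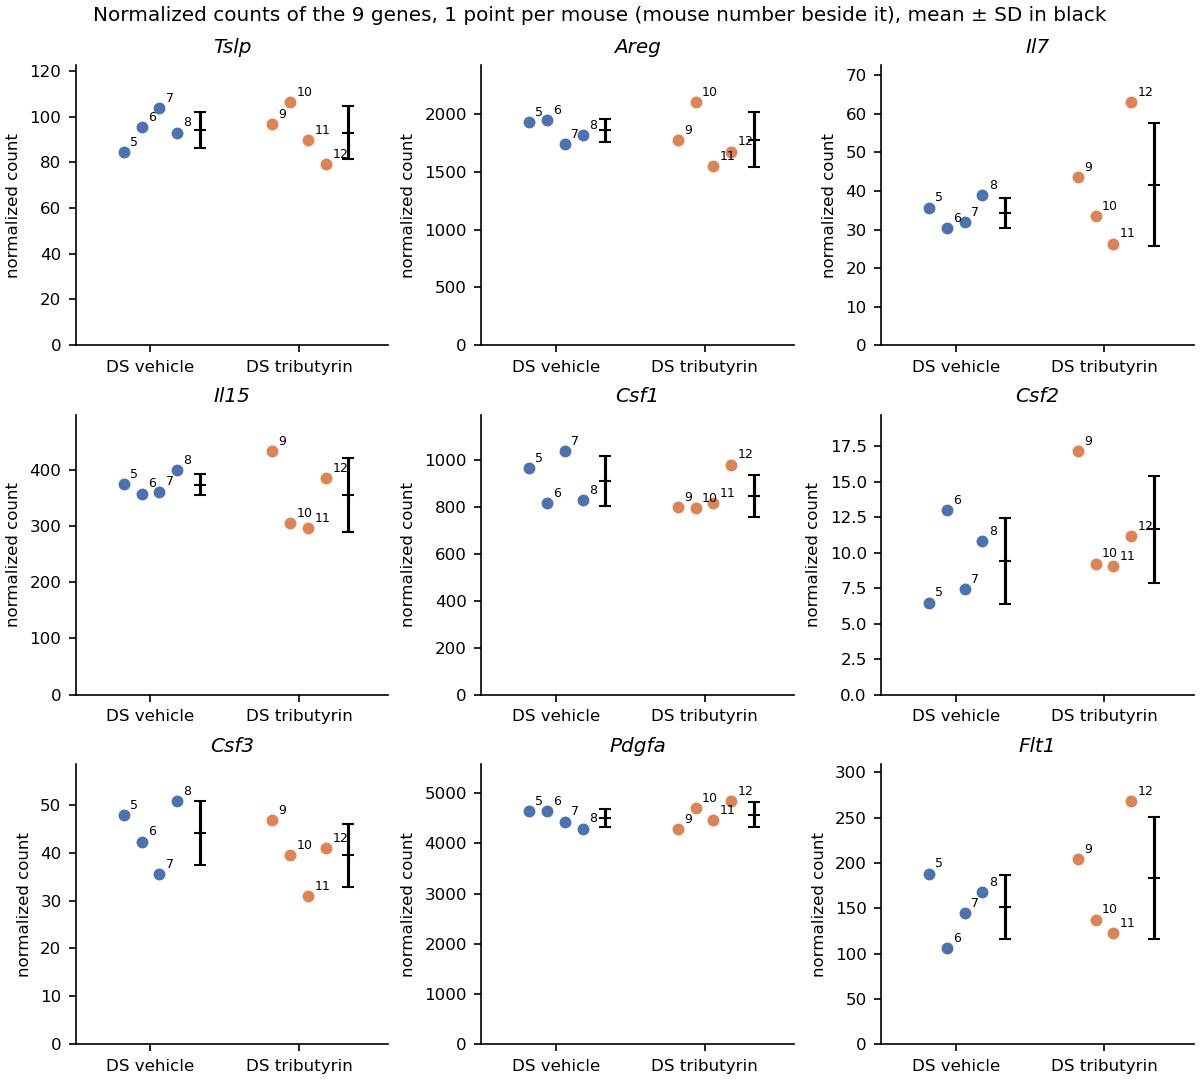
Normalized count (vertical axis, from 0, its range set per gene) of each of the 9 genes in each mouse, with the mouse number beside its point, DS vehicle in blue and DS tributyrin in orange, and the mean ± SD of 4 mice in black. The groups overlap for all 9 genes, and mouse 12 stands high for Il7 (63.2) and Flt1 (268.7).

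Tslp, the alarmin, was present at similar levels in both groups. The vehicle mice 5 to 8 had normalized counts of 84.4, 95.5, 103.7 and 93.0, and the tributyrin mice 9 to 12 had 96.6, 106.5, 89.8 and 79.3. The highest and the lowest of the 8 values were both in tributyrin mice. Means were 94.1 ± 7.95 (SD, n = 4) in the vehicle group and 93.0 ± 11.4 (SD, n = 4) in the tributyrin group. The log2 fold change of Tslp was -0.02 (standard error 0.10, 95% interval -0.26 to 0.22, limma adjusted p = 0.939). On the linear scale that interval runs from 0.833-fold to 1.17-fold.

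Areg, the epidermal growth factor receptor ligand, was tightly grouped in vehicle mice and more spread in tributyrin mice. Its normalized counts were 1931, 1953, 1743 and 1822 in vehicle mice 5 to 8 and 1779, 2109, 1554 and 1677 in tributyrin mice 9 to 12. Tributyrin mouse 10 lay above every vehicle mouse, and mice 11 and 12 lay below every vehicle mouse. Means were 1862 ± 97.6 (SD, n = 4) in the vehicle group and 1780 ± 238 (SD, n = 4) in the tributyrin group, coefficients of variation of 5.24% and 13.4%. The log2 fold change was -0.07 (standard error 0.10, 95% interval -0.30 to 0.15, limma adjusted p = 0.722). Without mouse 10 it was -0.158 and without mouse 11 it was -0.0111.

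Of the genes listed as dendritic cell and MHC class II markers, 6 of 6 had log2 fold changes above 0, beside 177 of 248 over the panel. 1 of the 6, H2-Ea-ps, carries a pseudogene symbol and may not mark these cells. None of the 6 was called, though Ccr7 and Ccl19 had an unadjusted limma p under 0.05. The 6 genes summed to 1433 to 1764 normalized counts in vehicle mice and 1544 to 2034 in tributyrin mice. Which cells their RNA came from was not tested. The type 2 genes that TSLP is known to promote, listed as Il4, Il5, Il9, Il13, Ccl11, Ccl17, Ccl22 and Ccl24, were all measured, and 0 of the 8 passed the adjusted test in either direction. At an unadjusted limma p under 0.05 Il5 alone passed, toward higher values with tributyrin. Il5, an eosinophil growth factor, had 24.2 ± 0.599 (SD, n = 4) in the vehicle group and 29.3 ± 3.39 (SD, n = 4) in the tributyrin group, and its limma adjusted p was 0.240. Ccr3, an eosinophil receptor, was the 1 mast cell or eosinophil marker measured of 5 listed. It had 19.26 to 28.39 normalized counts with vehicle and 14.02 to 19.82 with tributyrin, a log2 fold change of -0.49. Its unadjusted limma p was under 0.05, toward lower values with tributyrin, and it was not called. Il13, a central type 2 cytokine that also acts on goblet cells, had 25.2 ± 3.54 (SD, n = 4) and 28.4 ± 6.62 (SD, n = 4), a log2 fold change of 0.15 (95% interval -0.29 to 0.59). Il5, Ccr3 and Il13 all lay among the 73 panel genes with a mean normalized count under 50, of which 62 had a log2 fold change above 0.

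Il7, the lymphocyte survival factor made by stroma and epithelium, varied far more among tributyrin mice than among vehicle mice. Vehicle mice 5 to 8 had normalized counts of 35.7, 30.4, 31.8 and 38.9, within 1.28-fold of each other, and tributyrin mice 9 to 12 had 43.6, 33.5, 26.3 and 63.2, a 2.40-fold range. Mouse 12 was the highest and mouse 11 the lowest of all 8. The vehicle mean was 34.2 ± 3.86 (SD, n = 4), a coefficient of variation of 11.3%. The tributyrin mean was 41.7 (n = 4), with a coefficient of variation of 38.4%, and the log2 fold change was 0.21 (standard error 0.25, 95% interval -0.37 to 0.80, limma adjusted p = 0.698). Without tributyrin mouse 12 it was -0.012.

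Il15, the other common gamma chain cytokine among the 9, showed the same contrast in spread. Its normalized counts were 374.8, 358.0, 361.4 and 399.1 in vehicle mice 5 to 8, a coefficient of variation of 4.99%. In tributyrin mice 9 to 12 they were 433.2, 305.2, 296.7 and 385.2, a coefficient of variation of 18.5%. Mice 10 and 11 lay below every vehicle mouse, mouse 9 lay above every vehicle mouse and mouse 12 lay within their range. Means were 373 ± 18.6 (SD, n = 4) and 355 ± 65.6 (SD, n = 4), with a log2 fold change of -0.09 (standard error 0.13, 95% interval -0.38 to 0.21, limma adjusted p = 0.745). Without tributyrin mouse 9 the log2 fold change was -0.19, and without mouse 11 it was -0.00904.

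Mice 9 and 12 had the lowest total counts of all 8 mice, and Il15 was the 1 member with an unadjusted limma p under 0.05 when both were left out. Mice 9 and 12 also held the highest Il15 values of the tributyrin group, 433.2 and 385.2 normalized counts, so leaving them out lowers that group. The remaining 6 mice were the 4 vehicle mice and tributyrin mice 10 and 11. In these 6 the log2 fold change of Il15 was -0.31 (limma adjusted p = 0.307), with mice 10 and 11 below all 4 vehicle mice. Its unadjusted limma p was 0.00551, and 16 of 248 panel genes, Il15 among them, had an unadjusted p under 0.05 in this fit (6.45%). When all 8 mice were fitted with their scaling factor as a covariate, the log2 fold change of Il15 was -0.21 (limma adjusted p = 0.530). Neither value passed the adjusted threshold.

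The other cytokines that use the common gamma chain, Il2, Il4, Il9 and Il21, gave no call in 4 of 4 measured genes. Il2, a T cell growth factor, had 23.4 ± 4.15 (SD, n = 4) in the vehicle group and 28.8 ± 3.91 (SD, n = 4) in the tributyrin group. Il21, a cytokine of helper T cells, had 32.9 ± 7.70 (SD, n = 4) and 42.5 ± 5.04 (SD, n = 4), a log2 fold change of 0.40 (95% interval -0.04 to 0.84). For Il9 the change was 0.18 on the log2 scale (interval -0.07 to 0.43), and for Il4, with means of 10.1 and 9.13 normalized counts, it was -0.19 (interval -1.07 to 0.68). All 4 lay at low levels, and the limma adjusted p was 0.454 for Il2 and Il21. The 5 measured genes of the T cell marker list, which also holds Il2 and Il21, summed to 113.6 to 150.9 normalized counts in vehicle mice and 142.5 to 182.3 in tributyrin mice. All 5 log2 fold changes were above 0 and none was called. Over the panel 177 of 248 genes were above 0, and so were 62 of the 73 genes with a mean under 50.

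Csf1, the macrophage growth factor, had normalized counts of 964.5, 818, 1038 and 828.4 in vehicle mice 5 to 8. Tributyrin mice 9 to 12 had 800.9, 794.0, 817.6 and 980.9. Mice 9 and 10 lay below the lowest vehicle mouse, mouse 11 was level with it, and mouse 12 lay with the higher vehicle mice. Means were 912 ± 107 (SD, n = 4) and 848 ± 88.9 (SD, n = 4), and the log2 fold change was -0.10 (standard error 0.11, 95% interval -0.35 to 0.14, limma adjusted p = 0.679). It was -0.0384 without vehicle mouse 7 and -0.174 without mouse 12. The 11 measured macrophage and monocyte markers summed to 24180 to 28880 normalized counts in vehicle mice and 22680 to 28580 in tributyrin mice, and their median log2 fold change was 0.059 with 0 called. Of the 11 log2 fold changes 8 were above 0 and 3 below, and the median over the panel was 0.055. Among these markers Ccr2 and Itgb2 had an unadjusted limma p under 0.05, both toward higher values with tributyrin, where 31 of 248 panel genes (12.5%) passed that threshold.

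Csf2, encoding GM-CSF, lay at the bottom of the measured range. Before scaling it had 8, 12, 10 and 10 counts in vehicle mice 5 to 8 and 11, 11, 10 and 9 counts in tributyrin mice 9 to 12. These counts stayed between 8 and 12 in every mouse while the total count differed 2.01-fold between the deepest and the shallowest mouse. A count of 8 has an exact 95% Poisson interval of 3.45 to 15.8 and a count of 12 one of 6.20 to 21.0, and each of the 8 counts lay inside both intervals. After scaling the normalized counts were 6.49, 13.0, 7.41 and 10.8 with vehicle and 17.1, 9.22, 9.07 and 11.1 with tributyrin, and the highest of them came from mouse 9, which had the largest scaling factor (1.56). The log2 fold change was 0.31 (standard error 0.28, 95% interval -0.34 to 0.96, limma adjusted p = 0.673), 0.11 without mouse 9, 0.15 without vehicle mouse 5 and 0.48 without vehicle mouse 6. Negative control probes were not analysed here, and whether these counts lie above background was not tested.

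Csf3, encoding the neutrophil growth factor G-CSF, had somewhat higher counts. Normalized counts were 47.9, 42.3, 35.5 and 50.8 in vehicle mice 5 to 8 and 46.7, 39.4, 30.9 and 40.9 in tributyrin mice 9 to 12. The groups overlapped over most of their range, with the lowest value in mouse 11. Means were 44.1 ± 6.73 (SD, n = 4) and 39.5 ± 6.56 (SD, n = 4), and the log2 fold change was -0.16 (standard error 0.15, 95% interval -0.52 to 0.19, limma adjusted p = 0.673). It was -0.0507 without mouse 11, -0.0916 without vehicle mouse 8, -0.251 without mouse 9 and -0.264 without vehicle mouse 7. Of the 3 members with a mean under 50 (Il7, Csf2 and Csf3), Csf3 was the 1 with a log2 fold change below 0, where the median of the panel genes at that level was 0.20. The 2 neutrophil markers measured, Cxcr1 and Cxcr2, summed to 44.4 to 52.1 normalized counts with vehicle and 47.8 to 71.7 with tributyrin, and neither was called. The part of these marker genes in the members' values was not tested.

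Il3 and Il5, whose receptors share a beta chain with that of GM-CSF, gave 0 calls. Il3 had 23.8 ± 2.69 (SD, n = 4) in the vehicle group and 22.6 ± 2.67 (SD, n = 4) in the tributyrin group. Of 9 listed genes known to induce Csf2, Csf3 or Tslp in epithelium and stroma (Il1a, Il1b, Tnf, Il17a, Il1r1, Nfkb1, Rela, Relb and Myd88), 0 passed the adjusted test, with 4 log2 fold changes above 0 and 5 below. Tnf had 473.8 ± 86.2 (SD, n = 4) normalized counts with vehicle and 369.7 ± 59.0 (SD, n = 4) with tributyrin, a log2 fold change of -0.35 (95% interval -0.73 to 0.02, limma adjusted p = 0.454). Il1b, which encodes the cytokine IL-1 beta, had 83.2 ± 18.4 (SD, n = 4) and 89.0 ± 16.9 (SD, n = 4). Il17a was the 1 gene of the 9 with an unadjusted limma p under 0.05, at 21.0 ± 2.32 (SD, n = 4) in the vehicle group and 30.9 ± 5.69 (SD, n = 4) in the tributyrin group (limma adjusted p = 0.167), and it too lay under a mean of 50.

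Pdgfa, the fibroblast mitogen, was the most evenly measured of the 9 genes. Vehicle mice 5 to 8 had 4651, 4651, 4434 and 4296 normalized counts, and tributyrin mice 9 to 12 had 4282, 4701, 4468 and 4851. All 8 values lay between 4282 and 4851. Means were 4508 ± 174.6 (SD, n = 4) and 4576 ± 251.4 (SD, n = 4), and the log2 fold change was 0.02 (standard error 0.06, 95% interval -0.12 to 0.16, limma adjusted p = 0.886). That interval, 0.921-fold to 1.12-fold, was the narrowest of the 9.

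Flt1, the VEGF receptor, had the widest interval after Csf2, at a level where counting error was small. Normalized counts were 188.2, 106.3, 144.4 and 167.6 in vehicle mice 5 to 8 and 204.1, 137.5, 122.5 and 268.7 in tributyrin mice 9 to 12. Tributyrin mice 9 and 12 lay above every vehicle mouse, and mice 10 and 11 lay within the vehicle range, whose lowest value was vehicle mouse 6. Means were 151.6 ± 35.1 (SD, n = 4) and 183.2 ± 67.2 (SD, n = 4), with a log2 fold change of 0.23 (standard error 0.28, 95% interval -0.42 to 0.88, limma adjusted p = 0.705). It was 0.025 without mouse 12, 0.073 without vehicle mouse 6, 0.157 without mouse 9, 0.403 without mouse 11 and -0.19 without mice 9 and 12 together. Areg, with the same response element before its start site, had values within 1.36-fold of each other in the tributyrin group, against 2.19-fold for Flt1. Whether the element has a part in the values of either gene was not tested.

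Of the 16 listed transducers that lie behind the receptors for M-CSF, amphiregulin, PDGF-A and the VEGFs, all were measured and 0 passed the adjusted or the unadjusted threshold. Their median log2 fold change was 0.021, with 12 above 0 and 4 below. Mapk3, which encodes the kinase ERK1, had a difference of 0.06 on the log2 scale (interval -0.08 to 0.21). Fos, an early target of this cascade, ranged from 10020 to 14780 normalized counts in vehicle mice and from 5859 to 13610 in tributyrin mice, with a difference of -0.43 on the log2 scale (interval -1.02 to 0.15, limma adjusted p = 0.480). The differences for Jun and Myc were 0.06 (interval -0.09 to 0.21) and 0.15 (interval -0.08 to 0.38). Of 7 transforming growth factor beta and matrix metalloproteinase genes, 0 were called, with 6 log2 fold changes above 0 and 1 below. Mmp3, a matrix-degrading enzyme of stromal cells, had 1994 ± 520.6 (SD, n = 4) normalized counts with vehicle and 2932 ± 612.1 (SD, n = 4) with tributyrin, a log2 difference of 0.57 (interval 0.06 to 1.09, limma adjusted p = 0.366). Smad7, an inhibitor of this pathway, differed by -0.19 (interval -0.36 to -0.03, limma adjusted p = 0.366). Both had an unadjusted limma p under 0.05. Tgfb1, a driver of fibroblast matrix production, had 4897 ± 323.7 (SD, n = 4) in the vehicle group and 4907 ± 284.8 (SD, n = 4) in the tributyrin group.

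**Figure D2:**
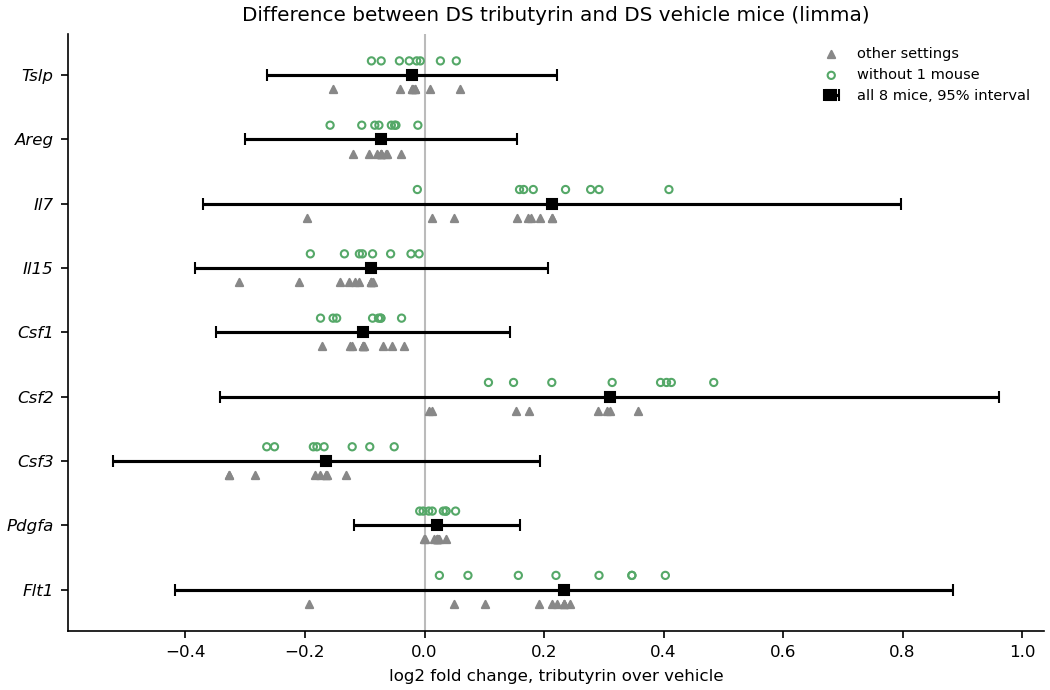
Log2 fold change of each gene, tributyrin over vehicle (horizontal axis), with black squares for limma on all 8 mice and bars for the 95% interval, green circles for the value without each single mouse, and grey triangles for other scalings, filters, variance models and subsets. Every 95% interval crosses 0, from the narrowest for Pdgfa (-0.12 to 0.16) to those of Csf2 (-0.34 to 0.96) and Flt1 (-0.42 to 0.88).

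The members differed in how widely their values spread within a group. On the log2 scale the SD was larger with tributyrin than with vehicle for 7 of the 9 genes, the exceptions being Csf1 (0.17 with vehicle, 0.14 with tributyrin) and Csf2 (0.47 and 0.43). It was 0.16 and 0.54 for Il7, 0.36 and 0.52 for Flt1, 0.071 and 0.26 for Il15 and 0.076 and 0.19 for Areg. Over all panel genes the median SD was 0.15 with vehicle and 0.17 with tributyrin, and the share of panel genes with a larger SD with tributyrin was not counted. Counting alone would give a log2 SD of about 0.45 for Csf2, 0.24 for Il7, 0.22 for Csf3, 0.15 for Tslp, 0.11 for Flt1 and 0.021 for Pdgfa, from the mean count before scaling. The SD of Csf2, Csf3 and Tslp was thus close to the counting value in both groups. That of Areg, Csf1, Pdgfa and Flt1 was above it in both groups, and that of Il7 and Il15 in the tributyrin group. For Csf2 the counts before scaling were 8 to 12 in all mice, while scaling factors ran from 0.7406 to 1.5581. Its SD after scaling therefore also holds the spread of these factors, and the part of each was not tested. With vehicle, the SD of Il7 (0.16) and of Il15 (0.071) lay below the counting values of 0.24 and 0.075. No test compared the spread of one group with that of the other.

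**Figure D3:**
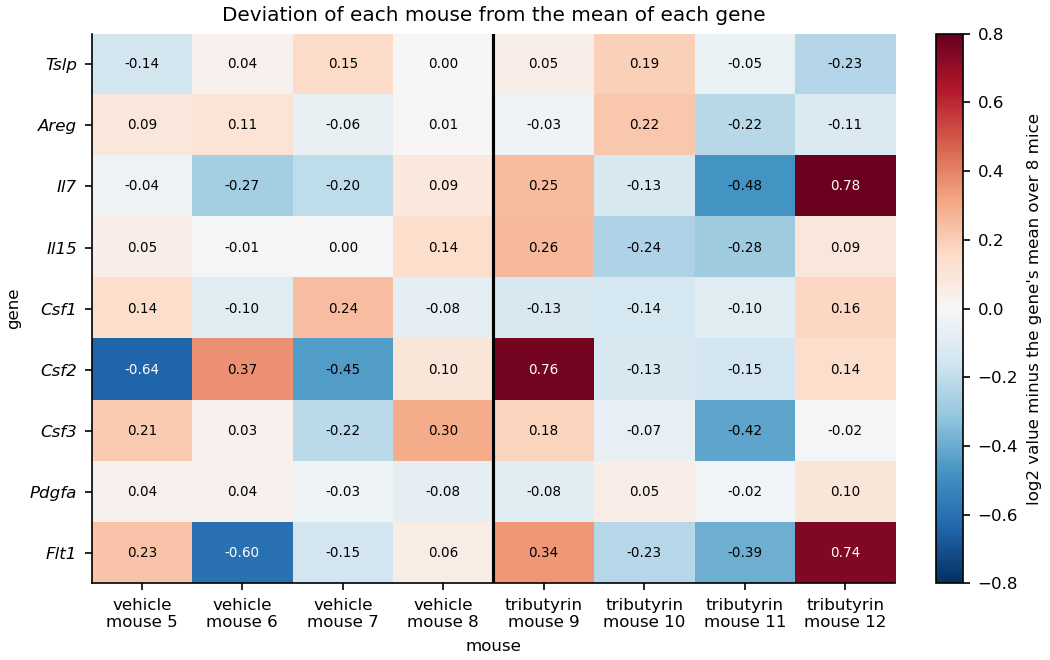
Log2 value of each mouse (columns) minus the mean of each gene over 8 mice (rows), in red above and in blue below that mean, with the black line between vehicle and tributyrin mice. Il7 and Flt1 share their highest value in tributyrin mouse 12 (0.78 and 0.74). Il15, Il7, Flt1 and Csf2 are above their means in mice 9 and 12 and below them in mice 10 and 11.

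Among the 9 genes, Il7 and Flt1 ran alike across the mice. The root mean square difference between their centred log2 values over the 8 mice was 0.161, where the spread of Flt1 about its own mean was 0.404. Both were highest in mouse 12 and next highest in mouse 9, and both were low in mouse 11 and vehicle mouse 6. Before scaling, mouse 12 had 51 counts of Il7 and 217 of Flt1 from a total of 923604, whereas mouse 11 had 29 and 135 from 1227607. Tslp went the other way in mouse 12, with its lowest value of all 8 mice.

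Panel genes with a mean of at least 100 were compared with each member at that level by the same measure, over 8 mice and 142 genes. Flt1 lay closest to Alox15, a lipoxygenase (difference 0.197), and to C1qa, a complement gene of macrophages (0.210). Alox15 had 7010, 4497, 4751 and 8607 normalized counts in tributyrin mice 9 to 12, and was likewise highest in mice 12 and 9 and lower in mice 10 and 11. Il15 lay closest to Irf1, an interferon-responsive transcription factor (0.090, with 44500, 34400, 32860 and 41670 normalized counts in these mice), and to C1qb (0.121). Il1r1, which encodes a receptor for IL-1, was among the 2 genes nearest to Pdgfa (0.033). Areg lay closest to Tlr1 (0.069) and Ly96 (0.081), and Csf1 to Tcf4 (0.112) and Ddit3 (0.118). These are the nearest of many genes over few mice and are given as a description.

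The mice differed in depth, and the counts of the members are set beside it here. Counts before scaling were recovered as whole multiples of 1 step for 100% of the genes in each mouse (tolerance 0.001), and totals were 1035041 to 1494519 in vehicle mice and 742068 to 1344723 in tributyrin mice. The deepest mouse (vehicle mouse 7) had 2.01 times the total count of the shallowest (mouse 9), 2.18 times the count of Pdgfa, 2.06 times that of Areg and 2.26 times that of Tslp. The ratio was 2.73 for Csf1, 1.76 for Il15, 1.6 for Csf3, 1.54 for Il7, 1.49 for Flt1 and 0.909 for Csf2. Mouse 9 and mouse 12 had the largest scaling factors, 1.56 and 1.24, and both were in the tributyrin group. The part of depth in the values of these mice was not tested beyond the fits that leave them out or use the factor as a covariate, in which the log2 fold change of Il7 was -0.197 and 0.050 and that of Flt1 -0.193 and 0.102. That of Csf2, 0.31 with all 8 mice, was 0.0125 and 0.00704, and that of Csf3 was -0.327 and -0.283.

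**Figure D4:**
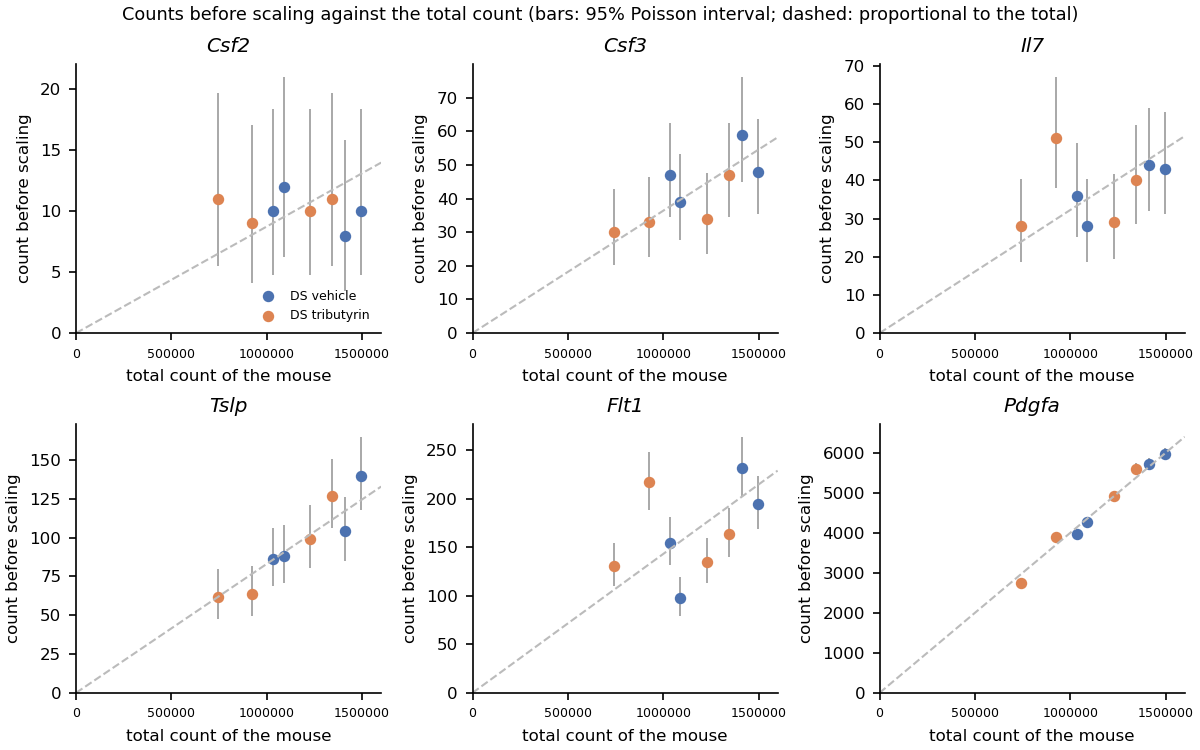
Count before scaling (vertical axis) against the total count of the mouse (horizontal axis) for 6 of the genes, with vehicle in blue, tributyrin in orange, 95% Poisson intervals as bars and a dashed line proportional to the total. Pdgfa and Tslp follow the line, Csf2 stays between 8 and 12 counts in all mice, and tributyrin mouse 12 lies above the line for Il7 (51 counts) and Flt1 (217 counts).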

How the data were processed

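Conjunctival RNA of 4 DS vehicle and 4 DS tributyrin mice was hybridized to the nCounter Mouse Inflammation V2 panel. The authors normalized counts to the geometric mean of reference genes, used the ROSALIND platform and deposited log2 values, 1 column per mouse. The sources used here do not say how background was treated. Reference genes and control probes were not analysed here. Counts of different genes rest on different probes and were not compared as transcript abundance.

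Limma 3.58.1 in R 4.3.3 (lmFit, eBayes without a trend) was fitted to all 248 genes as deposited, with group as the only term, no filter and Benjamini-Hochberg adjustment. The code was tried on simulated data in which most genes were changed, which does not show how often it errs in these data. Exact two-sided Mann-Whitney tests used all 70 assignments of the mice (smallest p 0.0286). The fit was repeated with quantile normalization, with voom, with the values centred on the median, with a trend of variance on mean, with means under 20 or under 100 removed, with a pseudocount of 10, with the scaling factor as covariate, and with mice left out. Poisson intervals cover counting error only. The members and lists were chosen with earlier results of these data known. Named genes were the 9 members, genes fixed from the lists, and the 2 nearest panel genes of each member with a mean of at least 100; Il17a and Il5 at their unadjusted p, Mmp3, Smad7, Ccr2, Ccr3, Ccr7, Ccl19, Itgb2, Cxcr1 and Cxcr2 were named after their values were seen. Some genes that this rule names are not reported here. Summaries were computed in Python 3.11.15 with SciPy 1.17.1 and plots drawn with matplotlib 3.10.9.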

Additional observations from a re-analysis of the deposited data

Results flagged for a closer look

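In 18 groups of 4 mice (9 genes in both groups), 1 mouse lay far from the other 3 of its group in 1 case, where chance gives about 1 in 20 groups. Csf1 had a log2 value of 9.94 in tributyrin mouse 12, and the other tributyrin mice had 9.63 to 9.68. Without this mouse the log2 fold change of Csf1 was -0.174.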

How the results depend on the processing

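Of 157 log2 fold changes of the 9 genes under alternatives, 147 kept their direction, 10 changed sign and 0 passed an adjusted p of 0.05 (smallest 0.307, for Il15 without the 2 shallowest mice). Without those mice Tslp was 0.0591, Il7 -0.197 and Flt1 -0.193. With the scaling factor as a covariate Tslp was 0.010, and with quantile normalization Pdgfa was -0.000582. Leaving out each mouse gave -0.0888 to 0.0532 for Tslp (above 0 without tributyrin mouse 12 or vehicle mouse 7), -0.012 to 0.409 for Il7 (below 0 without tributyrin mouse 12) and -0.00802 to 0.052 for Pdgfa (below 0 without tributyrin mouse 12 or vehicle mouse 8). The count of panel genes called, 0 as fitted, was 7 with voom, 7 with a variance trend, 7 where only means of at least 100 were kept, 6 where means of at least 20 were kept, 6 after centring on the median and 6 with a pseudocount of 10. It ran from 0 to 6 when each mouse was left out (vehicle mouse 8 for 6, tributyrin mouse 11 for 4 and vehicle mouse 5 for 1). None of these were among the 9 genes. The 31 genes at an unadjusted p under 0.05 (12.5%) became 19 of the 143 genes kept by a filter at 100 (13.3%) and 16 of 248 without the 2 shallowest mice (6.45%). The cause of the changes in these counts other than the smaller number of genes or mice was not tested. The filter at 100 leaves out Tslp, Il7, Csf2 and Csf3, and that at 20 leaves out Csf2. The exact rank test called 0 panel genes after adjustment and gave an unadjusted p under 0.05 for 18. No paired analysis was made because the labels used here give no matching of mice between the groups.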
